A study of Drosophila melanogaster with 2 samples.

Results

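The genes described here encode the core of BMP and activin signalling in Drosophila melanogaster, the ligands dpp and gbb, the receptors tkv and babo, the Smad proteins Mad, Med and Smox, and the pathway regulators brk and Dad. They are 9 of 13945 protein-coding genes in the annotation, taken by name for their place in the pathway. No measured value enters the rule, but the genes were chosen with earlier results of these data known. Every chromatin immunoprecipitation sequencing (ChIP-seq) peak whose summit lay in one of these genes or within 5 kb of it was counted. That gave 34 of the 7326 peaks in the list of the authors thresholded by the irreproducible discovery rate (IDR). A peak in each replicate list was not required for entry. The samples were whole prepupae, males and females pooled, from a transgenic line stably expressing the CG6276 protein with a C-terminal GFP tag. Chromatin was pulled down with an anti-GFP antibody, although the antibody field of the labels names CG6276 itself. The labels state an age of 72 days, a value whose unit is in doubt for prepupae. There was a single group with 2 biological replicates, numbered 2 and 4, both from the same line, with chromatin sheared to 200 to 800 bp. No control library or untagged strain was analysed here, so the measurements show where peaks were placed and not what the tag or antibody contributed. In a whole animal, binding in a few cells and weak binding in many cannot be told apart.

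BMP and activin ligands are secreted proteins of the transforming growth factor beta family. They bring type I and type II receptor kinases together, the type I receptor phosphorylates a receptor-regulated Smad, and this Smad enters the nucleus with the shared co-Smad to control target genes. In flies the BMP branch patterns and grows the imaginal discs, from which adult appendages form. The activin branch acts in larval growth, in neuronal remodelling and in the timing of the ecdysone response.

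All 9 genes had at least 1 IDR-thresholded peak, against 40.1% of all protein-coding genes under the same rule. The 9 genes are long, with a median length of 10458 bp against 2166 bp for all protein-coding genes, and longer genes have larger windows. Together their windows had 1.49 peaks per 10 kb, against 0.547 over the 6 chromosome arms analysed. A peak of the 1465 strongest in the list lay in the window of 7 of the 9 genes (17.3% of all protein-coding genes). Mad and tkv were the exceptions.

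At a limit of 500 bp, the strong peaks lay away from the genes' own starts. Of the 34 peaks, 6 were within 500 bp of an annotated start of the gene itself (here, promoter peaks), 15 were in its introns, 13 were outside it, and 0 were in its exons beyond the promoters. The signal value is a score set by the peak caller of the authors, with no stated scale, and it is compared here within 1 list only. Promoter peaks had a median signal value of 187 and ranged from 149.5 to 268.5. Intron peaks had a median of 367, with a highest value of 1228, and peaks outside the genes had a median of 720.1, with a highest value of 2000.9. Of these 13, the 5 with a start of another gene within 500 bp had a median of 844. The 8 with none had a median of 339, below that of the intron peaks. These 8 include the strongest brk peak (signal value 1423), 744 bp upstream of the brk start, which would be a promoter peak at 1000 bp. The median over all 7326 peaks was 251.5, and over the 2414 of them within 500 bp of a start of any gene it was 267.

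**Figure D1:**
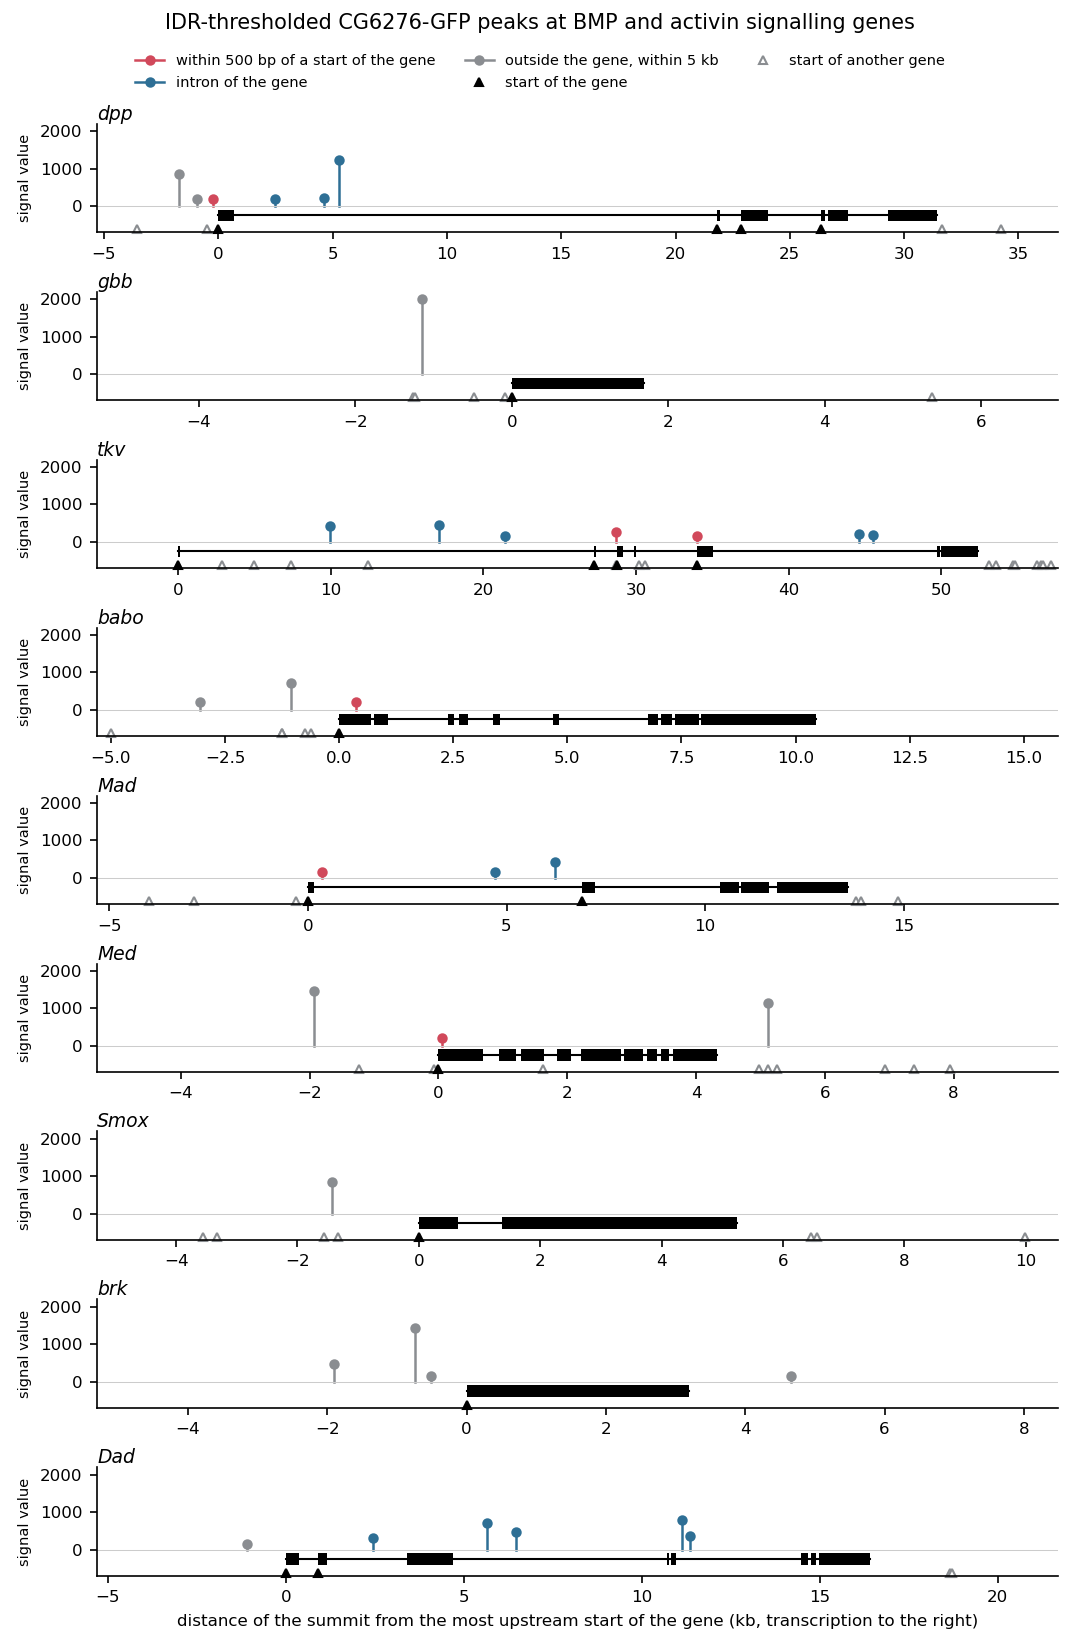
IDR-thresholded peaks at each gene, drawn as stems at the summit, with the signal value on the vertical axis and the distance from the most upstream start of the gene in kb on the horizontal axis. Black blocks are exons, filled triangles starts of the gene and open triangles starts of other genes. The promoter stems (red) reach at most 268.5, while intron stems (blue) reach 1228 at dpp and stems outside the genes (grey) reach 2000.9 at gbb.

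The sequences shown are those under the strongest summits of dpp, Mad, Med, brk and Dad, with a weaker dpp summit and 2 weaker Dad summits for comparison. Each run is 101 bp of the Release 6 reference (dm6), 50 bp to each side of the summit. Capitals mark CAGTG, or the core bound by the Brinker protein (GGCGCC, or GGCGCT, or GGCGTC, or GGCGTT), on either strand, and the 2 motifs can overlap.
dpp, intron peak with signal value 1228 (chr2L:2433609-2433709, plus strand): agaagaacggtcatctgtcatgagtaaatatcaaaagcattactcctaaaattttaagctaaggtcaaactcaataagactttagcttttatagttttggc
dpp, promoter peak with signal value 179.9 (chr2L:2428104-2428204, plus strand): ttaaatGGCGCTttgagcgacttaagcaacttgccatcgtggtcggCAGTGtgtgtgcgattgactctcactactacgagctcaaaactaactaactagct
Mad, intron peak with signal value 410.5 (chr2L:3153382-3153482, plus strand): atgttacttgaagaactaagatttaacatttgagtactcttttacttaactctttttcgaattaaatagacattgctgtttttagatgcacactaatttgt
Med, upstream peak with signal value 1462 (chr3R:31609064-31609164, plus strand): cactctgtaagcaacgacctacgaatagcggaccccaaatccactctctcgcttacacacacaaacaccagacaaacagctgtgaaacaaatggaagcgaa
brk, upstream peak with signal value 1423 (chrX:7307145-7307245, plus strand): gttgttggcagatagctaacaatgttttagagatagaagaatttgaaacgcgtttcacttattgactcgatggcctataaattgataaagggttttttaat
Dad, intron peak with signal value 315.4 (chr3R:17056404-17056504, plus strand): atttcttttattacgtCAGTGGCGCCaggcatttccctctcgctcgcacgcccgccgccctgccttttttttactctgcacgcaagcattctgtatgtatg
Dad, intron peak with signal value 802.4 (chr3R:17065081-17065181, plus strand): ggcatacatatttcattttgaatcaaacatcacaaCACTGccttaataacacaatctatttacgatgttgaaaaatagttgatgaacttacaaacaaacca
Dad, intron peak with signal value 366.7 (chr3R:17065315-17065415, plus strand): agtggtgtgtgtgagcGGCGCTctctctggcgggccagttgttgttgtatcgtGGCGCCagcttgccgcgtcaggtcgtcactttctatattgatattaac
The dpp intron, Mad, Med and brk runs have no capitals. The weaker dpp promoter run holds 1 CAGTG and 1 Brinker core, and the 2 weaker Dad runs hold Brinker cores that the strongest Dad run lacks. The weaker runs shown all hold a Brinker core, but not all weaker summits do. At this length no other dpp summit has either motif. Of the Dad summits not shown, those of 718.6 and 156.1 have 0 Brinker cores and that of 468.6 has 1. The matches depend on the length shown. Within 100 bp to each side the dpp intron, Mad and Med summits shown each have 1 CAGTG, and that of Mad also has a Brinker core.

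The ligand gene dpp encodes the main BMP of the imaginal discs. It lies on chromosome arm 2L from 2428372 to 2459823 on the plus strand, with 4 annotated starts. Its 6 IDR-thresholded peaks all lay between 1715 bp upstream and 5287 bp downstream of the first start. The strongest was in the first intron, which belongs to 1 of the 4 transcripts, at the downstream end of that range (signal value 1228, rank 264 of 7326). In the replicate lists it had signal values of 628 and 608 and ranked 286 in replicate 2 and 262 in replicate 4. The libraries placed it at nearly the same rank.

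Another strong dpp peak lay 1715 bp upstream of the same start, with a signal value of 855 and ranks of 645 and 582 in replicates 2 and 4. The dpp promoter peak, 218 bp upstream of the first start, was weak, with a signal value of 179.9 and rank 5506. It ranked 5150 in replicate 2 and 5562 in replicate 4, and it also lay 273 bp from a start of lncRNA:CR44912. The other 3 peaks, in the intron or upstream, had signal values between 177.3 and 224.7. One of these, 4631 bp downstream of the start, was matched in neither replicate list. No IDR-thresholded peak lay within 500 bp of the other 3 dpp starts.

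The second ligand gene, gbb, encodes a BMP that acts with Dpp and also signals back from muscle to motor neuron. It is a short gene on chromosome arm 2R, from 23851562 to 23853247. It had a single peak, 1147 bp upstream of its start, which was the strongest of the 34 (signal value 2000.9, rank 64). It ranked 45 in replicate 2 and 105 in replicate 4, with signal values of 1186 and 836. This summit was 114 bp upstream of a start of eIF6, a translation factor gene, 85 bp downstream of the start of asRNA:CR45928, and in an intron of ytr. It is therefore a promoter peak of eIF6 and asRNA:CR45928 by the distance used here. None of the lists had a peak within 500 bp of the gbb start.

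Among the receptors, tkv encodes the type I BMP receptor and spans 52385 bp on chromosome arm 2L, from 5219000 to 5271384 on the minus strand. It had the most peaks of the 9 genes, 7 in the IDR-thresholded list and 44 in the pooled list, and none of them was among the 1465 strongest. The highest was an intron peak with a signal value of 438.5 (rank 1712), which ranked 2128 in replicate 2 and 1563 in replicate 4. A further intron peak had a signal value of 423, with ranks of 3626 and 1168, so the libraries placed it further apart. Both lay in an intron of 1 of the 4 transcripts.

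Of the 4 tkv starts, 2 had a promoter peak. A summit 101 bp upstream of one start had a signal value of 268.5 (rank 3360), and it was the strongest promoter peak among the 9 genes. It ranked 2286 in replicate 2. Replicate 4 had a peak with its summit 97 bp upstream of that start, ranked 7142, which was too wide to match at 50% of both lengths. The summit also lay 22 bp from the start of CR14033, an annotated pseudogene. The other promoter peak, 39 bp upstream of a start, had a signal value of 149.5 and ranked 6991 and 6547. The widest gap between replicates among the matched peaks was at a tkv intron peak with a signal value of 196.9, which ranked 3593 in replicate 2 and 13773 in replicate 4, a ratio of 3.83.

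The type I activin receptor gene babo lies on chromosome arm 2R from 8952339 to 8962796. Its strongest peak was 1053 bp upstream of the start (signal value 720.1, rank 806), with ranks of 714 and 1033 in replicates 2 and 4. That summit was 200 bp upstream of the shared start of CG8229 and CG33199, and 309 bp upstream of a start of Tom7, whose product belongs to the mitochondrial import machinery. The babo promoter peak was 359 bp downstream of the start, with a signal value of 202.2 and ranks of 3990 and 6355. A further peak, 3042 bp upstream, had a signal value of 204.3 and was matched in replicate 2 only.

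The Smad genes had different patterns. Mad encodes the Smad activated by BMP receptors and lies on chromosome arm 2L from 3146056 to 3159643 on the minus strand, with 2 starts. Its strongest peak was in an intron, 679 bp upstream of the downstream start, with a signal value of 410.5, rank 1877, and ranks of 1896 and 2219 in replicates 2 and 4. This was the lowest maximum among the 9 genes. The Mad promoter peak, 365 bp downstream of the upstream start, had a signal value of 157.2 and ranked 6065 and 9691. The remaining intron peak had a signal value of 143.0, the lowest of the 34.

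Med encodes the co-Smad shared by both branches and lies on chromosome arm 3R from 31611046 to 31615375. It was flanked by strong peaks on both sides. The upstream one, 1932 bp from the Med start and in an intron of the cyclin gene CycG, had a signal value of 1462 (rank 165) and ranked 232 and 147. The downstream one had a signal value of 1143 (rank 319), ranked 402 and 278, and lay 11 bp from a start of Mnat9 and 132 bp from a start of CG1792. Between them, the Med promoter peak 63 bp downstream of the start had a signal value of 193.9 and ranked 5934 and 4506. This peak was also 131 bp upstream of a start of CycG.

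Smox encodes the Smad activated by the activin receptor and lies on the X chromosome from 8137041 to 8142279. Its only IDR-thresholded peak was 1437 bp upstream of its start, with a signal value of 844 (rank 601) and ranks of 484 and 872. The summit was in the 5′ UTR of CG17982, 111 bp upstream of one of its starts. In replicate 4 alone, a peak 446 bp from the Smox start ranked 4352. Replicate 2 had no peak within 500 bp of the Smox start.

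None of the peaks at the regulator genes brk and Dad had a start of another gene within 500 bp. brk encodes the repressor of BMP target genes that Dpp signalling itself turns down, and it lies on the X chromosome from 7307939 to 7311132. Its 4 peaks all lay in introns of CG1677 and of lncRNA:CR44357. Its strongest peak was 744 bp upstream of its start, with a signal value of 1423 (rank 176). Replicates 2 and 4 gave signal values of 774 and 652 there and ranks of 163 and 218. A peak 1903 bp upstream had a signal value of 473.0 and ranked 1645 and 1797. For all 4 peaks the brk start was the nearest start of any gene.

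The brk locus also shows the edge of the promoter rule. A further summit 508 bp upstream of the start, within the same interval as the strongest peak, had a signal value of 159.8 and was just outside the 500 bp limit, while the Mad promoter peak at 365 bp was the farthest inside it. brk therefore has no promoter peak under the rule and has 2 at 1000 bp. For the 5 kb limit, the farthest peak inside was 3042 bp from babo and the nearest outside was 5377 bp from brk, with a signal value of 350.8.

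Dad encodes the inhibitory Smad, a target of Dpp that dampens the pathway, and lies on chromosome arm 3R from 17054007 to 17070408. It had 5 intron peaks, and 1 peak 1078 bp upstream of the gene. The strongest, 10234 bp downstream of the nearest Dad start, had a signal value of 802.4 (rank 664) and ranked 594 and 863. The next, 4773 bp downstream, had a signal value of 719 (rank 808) and ranked 1043 and 677. The other 3 intron peaks had signal values of 315.4, 366.7 and 468.6. No IDR-thresholded peak lay within 500 bp of either Dad start. In the pooled list the best there ranked 8276, with a signal value of 125.

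By strongest peak, the order of the genes was gbb, Med, brk, dpp, Smox, Dad, babo, tkv and Mad. With only 2 libraries, the replicate ranks give the spread. They overlapped between Med and brk, between Smox, Dad and babo, and between tkv and Mad. The rank of the gbb peak was better in both libraries than that of any other member's peak, and those of tkv and Mad were worse in both than those of the other 7 genes.

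Promoter peaks were found at 5 of the 9 genes (dpp, tkv, babo, Mad and Med), against 13.2% of all protein-coding genes. Their strongest promoter peaks had a median signal value of 193.9, against 316 for the 1842 genes with one. Only 1 of the 5, that of tkv, was among the stronger 50% of IDR-thresholded peaks, against 61.0% of those genes. Intron peaks were found at 4 of the 9 (dpp, tkv, Mad and Dad), against 9.77% of all protein-coding genes. These shares were not matched for gene length or number of starts. dpp and tkv have 4 annotated starts each, Mad and Dad have 2, and the other members have 1.

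In all 9 genes the strongest peak was outside the gene's own promoter, at the 500 bp limit. This was common, at 80.8% of all protein-coding genes with a peak. Among genes with both a promoter peak and another peak it held for 5 of 5 members and for 60.0% of the 1278 such genes. At 1000 bp the strongest brk peak, 744 bp from its start, and the strongest Mad peak, 679 bp from a start, would count as promoter peaks. The background shares were not computed at that distance. The counts given are descriptions, and differences from the background shares were not tested.

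**Figure D2:**
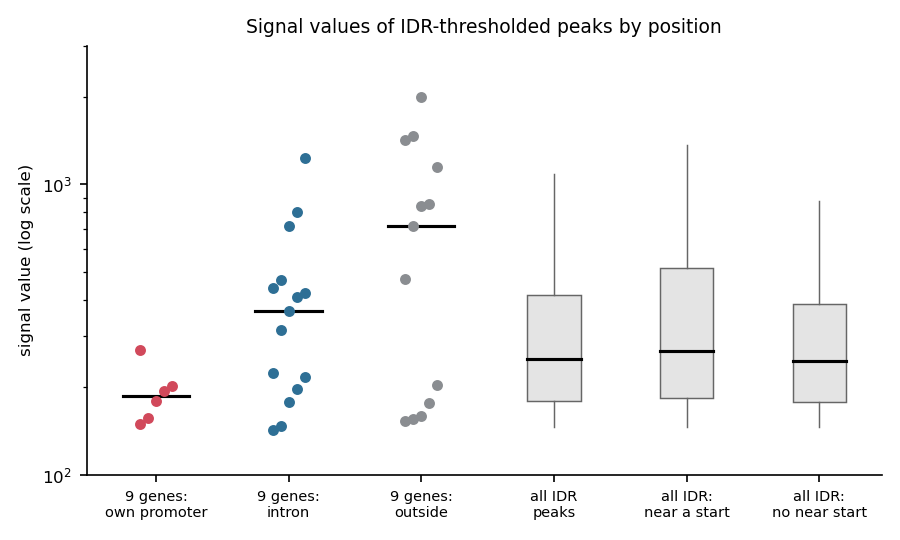
Signal values of IDR-thresholded peaks on a log scale, with each of the 34 peaks at the 9 genes as a point and the median as a black line. Grey boxes span the middle 50% of all 7326 peaks, of those with a start of any gene within 500 bp and of the others, with whiskers at the 5th and 95th percentiles. The promoter points sit between 149.5 and 268.5, below most intron points and most points outside the genes.

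Both libraries held most of the peaks. At 50% of both lengths, 29 of the 34 peaks (85.3%) were matched in both replicate lists, against 75.3% of all IDR-thresholded peaks. A further 4 were matched in 1 list and 1 in neither. Matched summits were a median of 8 bp from the pooled position in replicate 2 and 13 bp in replicate 4. The larger of the 2 replicate ranks was a median of 1.45 times the smaller, as it was over all matched peaks (1.45). Replicate 2 gave the better rank for 14 peaks and replicate 4 for 15, so neither library led.

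**Figure D3:**
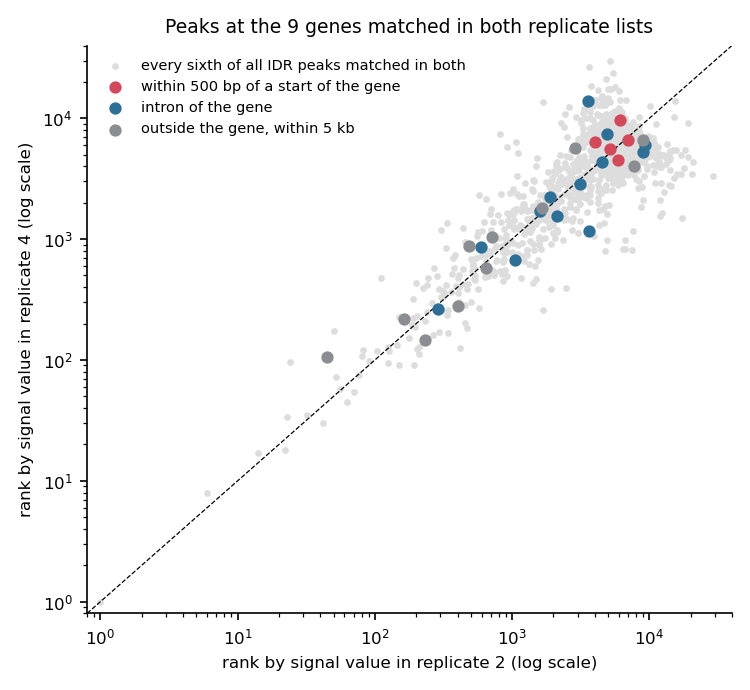
Rank by signal value in replicate 2 against replicate 4, both on log scales, for the 29 peaks at the 9 genes matched in both lists (coloured by position) and every sixth of all such IDR-thresholded peaks (light grey). The gbb peak is at 45 and 105, and the matched promoter peaks lie at ranks of 3990 to 9691.

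The lists of weaker peaks added many entries at the long genes and few at the short ones. The pooled list had 119 peaks at the 9 genes, replicate 2 had 106 and replicate 4 had 120. Of the pooled peaks 85 were not IDR-thresholded, 37 of them at tkv and 22 at dpp, and 0 at gbb and Smox. The strongest of the 85 ranked 7565 in the pooled list. The IDR-thresholded list was exactly the 7326 strongest peaks of the pooled list, so its lower edge at the members is a signal cut. That cut does not ask for a peak in each replicate list.

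**Figure D4:**
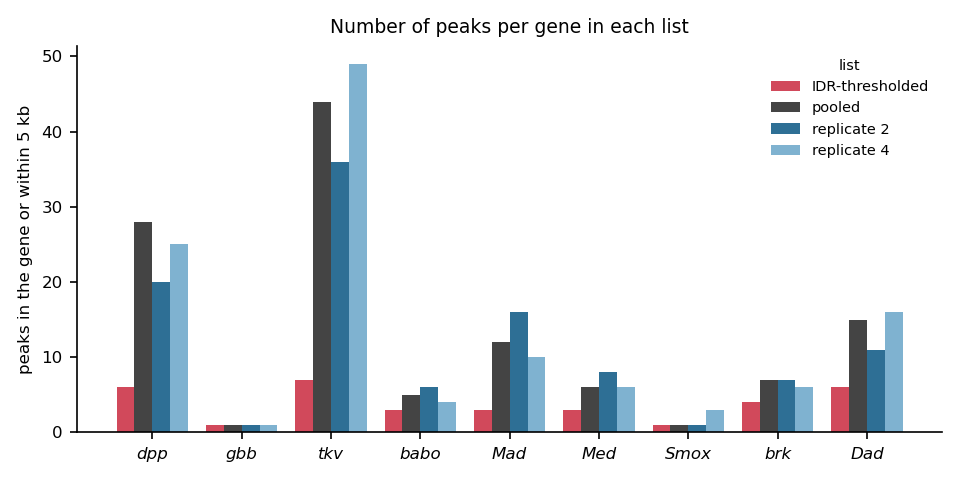
Number of peaks in each gene or within 5 kb, as bars, for the IDR-thresholded, pooled, replicate 2 and replicate 4 lists. tkv has 7, 44, 36 and 49 and dpp 6, 28, 20 and 25, while gbb has 1 in each list.

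Windows reaching 100 bp to each side of the summits were searched on both strands for sequences bound by Brinker and the Smads, and for CAGTG and GAGAG, which are not tied to the pathway. The Brinker core was in 9 of the 34 windows (26.5%), at 6 genes, against 14.3% of all IDR-thresholded windows. It was in 4 of the 6 promoter windows, in 5 of the 15 intron windows and in 0 of the 13 windows outside the genes. Counted by the nearest start of any gene, it was in 4 of the 11 windows with a start within 500 bp, against 18.7% of all IDR-thresholded windows of that kind. Among windows with no start that near, it was in 5 of 23, against 12.1% of all. The runs printed for Dad show it in 2 of its intron peaks, in one of them overlapping CAGTG. Among the 18 windows of the stronger 50% of peaks, 4 held it, against 12.2% of all such windows. These were the strongest Mad window and the Dad intron windows with signal values of 315.4, 366.7 and 468.6. The strongest dpp, Med and brk windows held none.

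CAGTG was in 19 of the 34 windows (55.9%, against 42.6% of all), and in 10 of the 18 stronger windows (43.7% of all stronger windows). GCCGNC, part of a Mad binding site, was in 3 windows (8.82%, against 14.1%), and GTCT, the short Smad box, in 18 (52.9%, against 53.4%). GAGAG was in 9 (26.5%, against 28.6%). The Schnurri-Mad-Medea silencer element was in 0 of 34 windows and in 2 of all 7326. GTCT is part of the silencer element, and a match is a description of the letters, not a bound site. The median GC content was 37.6% in these windows and 35.8% in all. In windows with a Brinker core GC content ran from 44.3% (Med) to 60.2% (babo), with exceptions. Those were the strongest Mad window (36.8%) and the Dad window of signal value 468.6 (27.9%). The motif shares were not matched for GC content.

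A further 32 genes of the pathway, listed by role, were examined in the same way. A promoter peak was found at 11 of them (34.4%), and any peak at 22 (68.8%), with 104 peaks in all. The strongest peak was outside the own promoter in 19 of the 22, near the 80.8% of all protein-coding genes with a peak. The background shares are the same as those given for the 9 genes, and gene lengths differ here too.

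Among the other ligand genes only daw, which encodes an activin-like ligand, had peaks. It had 4, with a promoter peak of signal value 146.2 that ranked 6638 in replicate 2 and 19110 in replicate 4. scw, mav, Actbeta and myo had none, and the last 3 lie on chromosome 4, which had 8 IDR-thresholded peaks in all. All 3 other receptor genes had a peak. wit, the type II receptor gene of motor neurons, had a promoter peak with a signal value of 284.5 that was matched in neither replicate list, and a stronger intron peak of 1297. The peaks of sax and put, with signal values of 533.0 and 573, were not at their promoters.

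Of 11 genes for extracellular modulators, 4 had a promoter peak. That of magu, whose secreted product widens the Dpp gradient of the wing, was strong, with a signal value of 999.8 and ranks of 384 and 534. The promoter peak of Fs, the follistatin gene, had a signal value of 489, was not matched in replicate 2, and ranked 1267 in replicate 4. The glypican gene dlp and the protease gene tok had weak ones of 184.1 and 157.3.

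Inside the cell, shn had the most peaks of all 41 genes examined. shn encodes the zinc-finger protein that joins Mad and Med to repress brk. It had 23 peaks, 21 of them in introns, and a promoter peak with a signal value of 1100.0 that ranked 430 and 322. nej, the coactivator gene, had a promoter peak of 412 at 490 bp from a start, which ranked 3649 and 1150. Smurf, a ubiquitin ligase gene, had none. Of 10 target genes 3 had promoter peaks, ush, salr and emc, with signal values of 448.5, 263.2 and 256.0. ush, the GATA-cofactor gene, had 18 peaks, and the strongest, in an intron, had a signal value of 3412 (rank 8). vg, bi, tup, pnr and Doc1 had peaks elsewhere, and salm and bam had 0.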

How the data were processed

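The data were ChIP-seq peak lists from 2 libraries of 1 group. The authors deposited a list per replicate, a pooled list and an IDR-thresholded list, each on builds dm6 and dm3. Only the 4 lists on dm6 were used here, and no coordinate was converted. Per the deposited documentation, alignments of each library and a further, undescribed file went into the replicate and pooled lists, and these into the IDR-thresholded list. The signal value, as deposited, is a peak-caller score. The deposited −log10 q-value was tied at its highest value in 53.6% of IDR-thresholded peaks and was not used. The sources used here name no aligner, caller or IDR threshold. Depth is unknown, and intervals that need it were not computed.

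Summits (start plus offset) were placed, 1-based, on Ensembl release 115 gene models (BDGP6.54, chromosome arms 2L, 2R, 3L, 3R, 4 and X) with Python 3.11.15. The largest peak end on each arm lay within the Release 6 sequence. Summits up to 500 bp from an own start counted as promoter peaks, and an exon or intron was assigned after that. Peaks of different lists matched at 50% of both lengths, nearest summit first. Placement, matching and motif search were tested on simulated data. All 9 genes were named, each with its strongest promoter and intron peak, and of the 32 pathway genes those with a promoter peak. The 9 genes were picked by name, but they, the 32 further pathway genes, the motifs and the thresholds were all chosen with earlier results of these data known. No tests were made: 1 group and 2 libraries allow descriptions beside the share over all protein-coding genes or peaks. With a single condition, genes of like pattern across conditions could not be sought. Alternatives varied the promoter distance, reach, match rule and list.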

Additional observations from a re-analysis of the deposited data

How the results depend on the processing

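Of 46 alternatives, 33 left the count within 1.5 times the reported one. A promoter distance of 250 bp gave 3 genes with a promoter peak in place of 5, and 7 pathway genes in place of 11, and 1000 bp gave 10 promoter peaks in place of 6. In gene bodies alone there were 20 peaks in place of 34, and 17 matched in both lists in place of 29. In the stronger 50% of IDR-thresholded peaks there were 18 peaks, 1 promoter peak at 1 gene and 9 intron peaks in place of 15. The pooled list gave 119 peaks, 17 promoter peaks, 77 intron peaks and 18 pathway genes with a promoter peak. These follow from fewer or more positions or peaks being counted.

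With the 7326 strongest peaks of 1 replicate alone in place of the IDR-thresholded list, the genes had 36 peaks from replicate 2 and 35 from replicate 4. A promoter peak was found at 6 genes from replicate 2, Dad added, and at 5 from replicate 4, where Smox was in and Mad out. Matches in both lists numbered 22 at 80% of both lengths and 32 at 1 bp. With unknown depth, a weak or missing peak cannot be told from one that was not detectable, and the lists' fixed length of 30000 sets which weak peaks appear.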

Other observations

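At brk and at Dad, neighbouring summits differed in base content. The strongest brk summit, 744 bp upstream, had 29.9% GC within 100 bp to each side, and the weak one at 508 bp had 46.8%. At Dad the summit with a signal value of 802.4 had 26.4% GC and 0 Brinker cores, and its neighbour 234 bp away, with a signal value of 366.7, had 46.8% GC and 2 cores. Elsewhere at Dad the summit of 468.6 had 27.9% GC and 1 core, and that of 156.1 had 28.4% GC and 0. The summit of 315.4 had 54.7% GC and 3 cores, and that of 718.6 had 37.3% GC and 0. The neighbouring pairs were chosen after their values were seen, and no test was made.

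Some genes had a strong peak beyond the 5 kb limit. The nearest outside it at Dad was 10513 bp from the gene with a signal value of 1755 (rank 99), and at gbb 15147 bp away with 1992 (rank 65). At dpp it was 18753 bp away with 434.9. No peak outside the limit lay within 20 kb of Mad.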
